A study of Aegilops tauschii x Triticum turgidum and Aegilops tauschii and Triticum turgidum subsp. durum with 18 samples.

Results

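Gene expression of a natural bread wheat, Triticum aestivum cv Courtot, was set against that of a durum wheat, Triticum turgidum cv Joyau, with 2 arrays of Courtot and 2 arrays of Joyau out of 18 arrays in the series. All 4 arrays carried RNA of whole plants that were 40 days old and had received no treatment, and 40 µg of total RNA was given for each. The comparison was made over the 18189 probe sets with a log2 expression value of 5 or more on at least 2 of the 18 arrays, out of 61290 on the Affymetrix wheat array, whose control probe sets were left out. A probe set is a group of short oligonucleotides that report on one transcript or on a few similar ones, and the value is the authors' normalised log2 hybridisation signal.

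The series followed what happens to gene expression when hexaploid wheat is formed. Besides Courtot and Joyau it held 6 arrays of synthetic hexaploids, made by crossing Joyau with the wild goat grass Aegilops tauschii. Of these, 2 came from Ae. tauschii accession 36 at selfed generation 0 (S0_36), 2 from accession 54 at generation 0 (S0_54) and 2 from accession 54 at generation 1 (S1_54). The remaining arrays were 2 of each Ae. tauschii accession (Ae36 of subspecies strangulata and Ae54 of subspecies tauschii) and 4 of RNA mixes of Joyau with an accession. Of the 4 Ae. tauschii arrays, all but Ae54 replicate 1 carry a label of 20 µg of RNA in place of 40 µg, and the part of this in the Ae. tauschii levels was not tested. All plants were of the same age, and the labels give Courtot and Joyau as biological replicates of one cultivar each, so neither species was sampled beyond a single cultivar. The genotype label reads hexaploid for every sample, also for Joyau, and the cultivar and species named in the sample descriptions were used in its place. The organism and extract labels of Ae54 replicate 1 name the hybrid and a mix, whereas its values correlated at r = 0.971 with Ae54 replicate 2 and at no more than 0.739 with the mix54 arrays, and it was kept under its description.

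Bread wheat carries the A, B and D subgenomes, and durum wheat carries only the A and B subgenomes. The D subgenome came from Ae. tauschii through a cross with a tetraploid wheat in early farming, so a Courtot plant holds A and B gene copies related to those of Joyau and D copies that Joyau lacks. The 3 copies of a gene in hexaploid wheat, called homoeologues, are similar but not identical in sequence, and a probe set may read all of them or favour some. Courtot and Joyau are cultivars with separate breeding histories, unlike the synthetics, whose A and B subgenomes are those of Joyau.

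Courtot and Joyau differed at about 1 in 3 of the tested probe sets, in both directions, and the large differences lay mostly on the Courtot side. Of the 18189 probe sets, 6010 (33.0%) were called, meaning an adjusted p under 0.05 in limma's moderated test with Benjamini-Hochberg adjustment. They split into 3201 (17.6%) higher and 2809 (15.4%) lower in Courtot. Without Courtot replicate 1 the split was 2601 higher and 1631 lower. The median log2 difference was 1.77 among the probe sets called higher and -1.28 among those called lower, and -0.033 over all tested probe sets. At an absolute log2 difference of 3 or more, 761 called probe sets were higher in Courtot and 236 lower. At 5 or more there were 228 higher and 29 lower.

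Both Courtot arrays lay above both Joyau arrays at 6029 probe sets (33.1%) and below them at 6498 (35.7%), so groups of 2 arrays often fail to overlap without a call. The 95% interval of a difference reached 0.64 to either side at the median, and replicate arrays differed by an SD of 0.604 for Courtot and 0.553 for Joyau on the log2 scale. Because 2 species were hybridised to probes designed for wheat transcripts, a difference in transcript amount and a difference in how well the probes match cannot be told apart. GCRMA also keeps dark probe sets at a low floor value, which shrinks the difference from any group that lies there. In whole plants, fewer cells of a type and less RNA per cell cannot be told apart either.

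**Figure D1:**
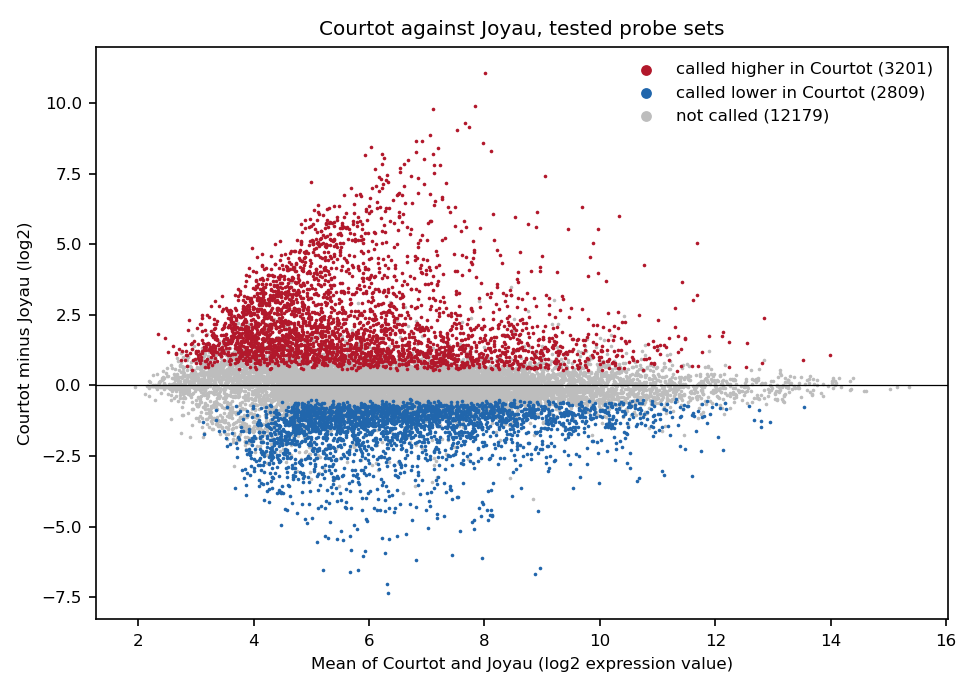
Each point is 1 of the 18189 tested probe sets, placed by the mean log2 expression value over Courtot and Joyau (horizontal) and by the log2 difference Courtot minus Joyau (vertical). The 3201 probe sets called higher in Courtot reach 11.06, whereas the 2809 called lower reach -7.35.

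The array's own controls were compared between the 4 libraries. The mean of the 9 spiked hybridisation controls was 9.20 and 8.46 in Courtot replicates 1 and 2, against 9.32 and 9.86 in Joyau replicates 1 and 2. An 18S ribosomal RNA control was at 5.99 and 4.71 in Courtot, against 6.09 and 7.48 in Joyau. The ubiquitin 3′ minus 5′ difference, a measure of RNA and labelling quality, was -1.89 and -2.14 in Courtot, against -3.30 and -3.43 in Joyau. Courtot replicate 2 and Joyau replicate 2 thus had the lowest and the highest hybridisation and 18S controls of these arrays, and the part of these differences in the results was not tested.

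The probe sets that could be tied to a gene were few. The probe table, which follows GEO's platform annotation, pairs 1273 probe sets with 1 gene symbol, and 716 of those were tested, for 511 symbols. Of these 716, 148 (20.7%) were called higher in Courtot and 98 (13.7%) lower, near the 17.6% and 15.4% over all tested probe sets. Nearly all of the symbols are locus identifiers (LOC followed by a number) whose products the table does not name, so they are given here by identifier, level and pattern alone.

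The largest rises with a symbol mostly went to genes that were near the floor in Joyau and strongly measured in Courtot. The 12 largest rises, 1 probe set per gene, spanned log2 differences of 5.06 to 8.58. In 10 of the 12, both Joyau arrays were below 5. In 11 of the 12, all 4 Ae. tauschii arrays and all 6 synthetic arrays were at 5 or more, counted separately. Over all probe sets at 5 or more on both Courtot arrays, these shares were 72.5% and 81.7%. All 12 calls held in each alternative of the processing that was tried.

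LOC543254 (probe set Ta.28784.1.S1_x_at) gave 11.90 and 12.62 in Courtot, against 3.79 and 3.57 in Joyau, a log2 difference of 8.58 ± 0.25 (SE, adjusted p = 3.41e-09, limma). Its means were 13.20 in Ae36 and 12.60 in Ae54, and 11.09 to 12.01 in the 3 synthetic groups, so Joyau stood alone at the floor. A second probe set of the same gene, Ta.28784.1.A1_at, stood at 4.48 and 4.48 in Courtot against 3.69 and 3.99 in Joyau and was not called (log2 difference 0.64 ± 0.47, adjusted p = 0.333).

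LOC780599 (Ta.13070.2.S1_a_at) was at 11.11 and 9.19 in Courtot, against 2.06 and 2.55 in Joyau, a log2 difference of 7.84 ± 0.97 (SE, adjusted p = 0.000108, limma). The Courtot arrays were 1.35 apart in SD, far less than their distance from Joyau. Its other 2 tested probe sets were also called higher, by 5.77 and 4.55. On the brighter of them, Ta.13070.1.S1_at, Joyau was not at the floor, at 7.82 and 7.30 against 12.74 and 11.48 in Courtot.

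LOC606328 shows how probe sets of 1 gene can read the species differently. On Ta.6572.2.S1_at it was at 10.31 and 9.08 in Courtot, against 3.28 and 3.01 in Joyau, a log2 difference of 6.55 ± 0.63 (SE, adjusted p = 1.59e-05, limma), with Ae36 at 10.46 and Ae54 at 11.44. On Ta.6572.1.S1_at it was at 11.26 and 9.69 in Courtot, against 10.83 and 10.50 in Joyau (log2 difference -0.19 ± 0.52, adjusted p = 0.824), with Ae36 at 2.94 and Ae54 at 2.95. The first probe set was thus near the floor in Joyau alone and the second in Ae. tauschii alone, and Courtot and the synthetics were measured on both. Another probe set, Ta.6572.1.S1_a_at, was at 9.33 or above in every group and not called (log2 difference 0.23 ± 0.73, adjusted p = 0.845).

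LOC606341 (Ta.23202.1.S1_at) was at 10.24 and 10.41 in Courtot, against 3.91 and 3.94 in Joyau, higher by 6.40 ± 0.34 (SE, adjusted p = 1.5e-07, limma). It was also higher in Courtot than in the synthetics, by 3.53 ± 0.27 (adjusted p = 6.31e-06), which had means of 6.45 to 7.40. Ae36 and Ae54 lay between the synthetics and Courtot, at 8.69 and 7.83. The difference from the synthetics was not called on the gene's other tested probe sets, at 0.57 on Ta.23202.1.S1_x_at and -0.38 on Ta.23202.2.S1_s_at.

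LOC543420 (Ta.255.1.S1_at) gave 12.24 and 11.71 in Courtot, against 6.09 and 5.58 in Joyau, a log2 difference of 6.14 ± 0.25 (SE, adjusted p = 2.55e-08, limma). Here Joyau was above the level of 5, unlike in most of the largest rises. The synthetic means were 11.84 to 12.47, and Courtot was not called against them (log2 difference -0.13 ± 0.20, adjusted p = 0.68).

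LOC542997 and LOC100037537 were higher in Courtot than in Joyau and yet lower than in the synthetics. LOC542997 (Ta.1200.1.S1_x_at) was at 8.36 and 8.87 in Courtot, against 3.10 and 2.87 in Joyau, a log2 difference of 5.63 ± 0.39 (SE, adjusted p = 1.24e-06, limma), and was lower than in the synthetics (log2 difference -1.43 ± 0.32, adjusted p = 0.00875). That second call ended without Courtot replicate 1. LOC100037537 (Ta.24466.1.S1_x_at) was at 10.44 and 10.28 in Courtot, against 4.97 and 5.49 in Joyau, a log2 difference of 5.13 ± 0.22 (SE, adjusted p = 3.13e-08, limma), and was lower than in the synthetics (log2 difference -0.89 ± 0.18, adjusted p = 0.00508). Both had their highest levels in Ae. tauschii, at 12.74 in Ae36 and 12.22 in Ae54 for LOC542997 and at 12.50 and 12.16 for LOC100037537.

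In 4 other rises of the 12 Joyau was likewise below 5 on both arrays. LOC100037538 was higher in Courtot than in Joyau by 5.81, LOC100037524 by 5.57, LOC542994 by 5.18 and LOC542812 by 5.06. Against the synthetics, Courtot was higher for LOC100037538 by 1.51 ± 0.25 (SE, adjusted p = 0.00173, limma) and for LOC542812 by 1.21 ± 0.28 (adjusted p = 0.0104). The LOC542812 call against the synthetics ended without Courtot replicate 2, at 0.75. LOC100037524 and LOC542994 were not called against the synthetics (log2 differences of -0.25 and 0.39).

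**Figure D2:**
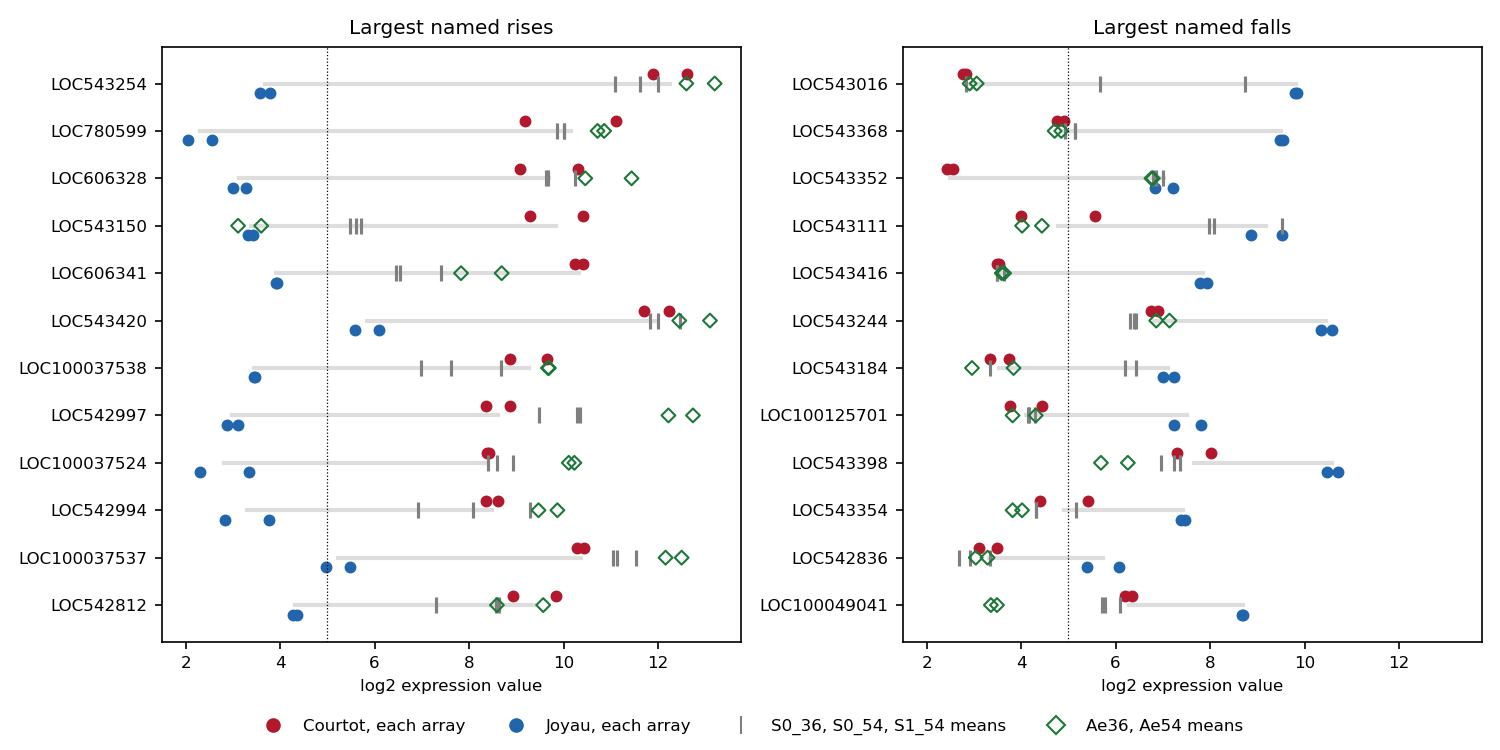
Log2 expression values of the 12 largest rises (left) and the 12 largest falls (right) with a gene symbol, 1 row per gene, with Courtot and Joyau arrays as filled points, means of the 3 synthetic groups as ticks and means of the 2 Ae. tauschii accessions as open diamonds; the dotted line is the level of 5. In most rises the diamonds lie with Courtot, as for LOC543254 at 13.20 and 12.60, and in most falls the diamonds lie with the low Courtot arrays, as for LOC543416 at 3.64 and 3.59.

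The largest falls with a symbol mostly went to genes that were below 5 in Ae. tauschii. The 12 largest falls spanned log2 differences from -7.02 to -2.41. All 4 Ae. tauschii arrays were below 5 in 9 of the 12, against 19.3% of all probe sets measured at 5 or more on both Joyau arrays. Both Courtot arrays were below 5 in 7 of the 12. The synthetics were mixed, with all 6 arrays at 5 or more for 5 of these genes and all 6 below for 3. Against the synthetics, 3 of the 12 were called lower in Courtot and 9 were not called. Over all tested probe sets 11.9% were called lower in Courtot than in the synthetics. The 12 calls against Joyau held in each alternative that was tried.

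LOC543016 (Ta.3854.1.S1_at) stood at 2.83 and 2.77 in Courtot, against 9.85 and 9.80 in Joyau, a log2 difference of -7.02 ± 1.28 (SE, adjusted p = 0.00165, limma). Its level split the synthetic plants, all of which have Joyau as a parent. It was at 2.82 and 2.84 in S0_36, at 2.77 and 8.55 in S0_54, and at 8.82 and 8.64 in S1_54, so 3 of the 6 synthetic arrays were at the Courtot level and 3 near the Joyau level. Within S0_54 the replicates differed by an SD of 4.09, which widens the error of every comparison of this probe set, and Courtot against the synthetics was not called (log2 difference -2.94 ± 1.04, adjusted p = 0.0609). It was called when S0_54 replicate 3 was left out, at -3.90, or replicate 4, at -1.98. Ae36 and Ae54 were at 3.06 and 2.91.

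LOC543368 and LOC543416 were low everywhere except in Joyau and the RNA mixes that contain it. LOC543368 (Ta.639.1.S1_at) was at 4.77 and 4.90 in Courtot, against 9.48 and 9.54 in Joyau, a log2 difference of -4.68 ± 0.20 (SE, adjusted p = 3.88e-08, limma), with synthetic means of 4.92 to 5.14. LOC543416 (Ta.203.1.S1_at) was at 3.53 and 3.49 in Courtot, against 7.93 and 7.79 in Joyau, a log2 difference of -4.35 ± 0.16 (SE, adjusted p = 1.42e-08, limma), with synthetic means of 3.50 to 3.63. Courtot was not called against the synthetics for either gene (log2 differences of -0.23 and -0.04), although Joyau is a parent of the synthetics. The RNA mixes were at 8.11 and 8.45 for LOC543368 and at 7.03 and 7.66 for LOC543416.

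LOC543352 (Ta.24148.1.S1_at) was low in Courtot alone. It gave 2.43 and 2.55 in Courtot, against 7.21 and 6.83 in Joyau, a log2 difference of -4.53 ± 0.20 (SE, adjusted p = 5.12e-08, limma). All other groups had means between 6.76 and 7.00.

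LOC543111 was among the falls on one part of its probe sets and among the calls in the opposite direction on another. On Ta.22794.1.S1_at it was at 4.00 and 5.56 in Courtot, against 9.52 and 8.86 in Joyau, a log2 difference of -4.41 ± 0.42 (SE, adjusted p = 1.53e-05, limma), and it was lower than in the synthetics too (log2 difference -3.75 ± 0.34, adjusted p = 2.28e-05). Ta.22794.1.S1_x_at, a probe set of the same cluster, was called lower with a difference of -4.28. On Ta.30622.1.S1_x_at the same symbol was at 9.38 and 9.51 in Courtot, against 6.76 and 6.92 in Joyau, higher by 2.61 ± 0.21 (SE, adjusted p = 3.52e-06, limma). Ae. tauschii was low on the first, at 4.02 in Ae36 and 4.44 in Ae54, and high on the last, at 9.80 and 9.74.

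LOC543184 (Ta.7378.35.S1_x_at) differed between the synthetics of the 2 accessions. It was at 3.35 and 3.74 in Courtot, against 7.01 and 7.23 in Joyau, a log2 difference of -3.58 ± 0.32 (SE, adjusted p = 1.03e-05, limma). The S0_36 mean was 3.35, at the Courtot level, and the S0_54 and S1_54 means were 6.43 and 6.19, a contrast that was not tested here.

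LOC543244 and LOC543398 fell without reaching the floor. LOC543244 (Ta.217.1.S1_x_at) was at 6.89 and 6.75 in Courtot, against 10.34 and 10.59 in Joyau, a log2 difference of -3.64 ± 0.26 (SE, adjusted p = 1.5e-06, limma). LOC543398 (Ta.27312.1.S1_x_at) was at 7.31 and 8.01 in Courtot, against 10.70 and 10.47 in Joyau, a log2 difference of -2.92 ± 0.51 (SE, adjusted p = 0.00118, limma), and its second probe set was also called lower, at -2.16. The remaining falls were LOC100125701 at -3.41, LOC543354 at -2.53, LOC542836 at -2.43 and LOC100049041 at -2.41.

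Probe sets without a gene symbol held the widest differences. Ta.13207.1.S1_x_at was at 13.45 and 13.65 in Courtot, against 2.50 and 2.47 in Joyau, a log2 difference of 11.06 ± 0.17 (SE, adjusted p = 1.15e-10, limma), and Ta.23807.6.A1_at was at 12.79 and 12.77 in Courtot, against 2.86 and 2.90 in Joyau, a difference of 9.90 ± 0.16 with the same adjusted p. Both were among the brightest signals in the synthetics and in Ae. tauschii, at 12.30 or more in every such group. Ta.28235.1.A1_s_at was at 2.86 and 2.46 in Courtot, against 10.25 and 9.77 in Joyau, a difference of -7.35 ± 0.24 (adjusted p = 5.74e-09), and Ta.29534.1.S1_x_at at 5.83 and 5.26, against 12.21 and 12.19 in Joyau, a difference of -6.66 ± 1.04 (adjusted p = 0.000617). Neither rise was called against the synthetics, and both falls were, at -5.71 and -3.53. The call of -3.53 ended when either Courtot replicate was left out.

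The question which of the Courtot and Joyau differences follow the D subgenome was addressed with the arrays of Ae. tauschii and of the synthetics. These arrays do not enter the log2 difference itself. They do enter the filter and the estimate of the spread behind each call, so they are not independent of the comparison. A probe set was taken as measured in a group where all its arrays were at 5 or more, and as below where all were under 5. By this, 12845 tested probe sets were measured in Courtot and 12556 in Joyau. At 1303 probe sets called higher in Courtot, both Courtot arrays were measured and both Joyau arrays below (measured in Courtot only). At 743 called lower, the reverse held (measured in Joyau only). The level of 5 is a convention of this comparison and not a detection call. A further 155 probe sets met the levels of the first class and 183 those of the second without being called, and they were left out of both.

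Of the 1303 called probe sets measured in Courtot and below in Joyau, 788 (60.5%) were measured on all 4 Ae. tauschii arrays and 295 (22.6%) were below on all 4. Over all probe sets measured in Courtot these shares were 72.5% and 14.1%. Among the 788, the synthetics were measured on all 6 arrays at 517 (65.6%) and below on all 6 at 24 (3.05%). Over the 9319 probe sets measured in Courtot and in Ae. tauschii, these shares were 89.9% and 0.461%. Among the 295, the synthetics were below on all 6 at 215 (72.9%) and measured on all 6 at 31 (10.5%). Over the 1806 probe sets measured in Courtot with Ae. tauschii below, the synthetics were below at 16.3% and measured at 60.6%. Neither the 9319 nor the 1806 were chosen to be below in Joyau, a parent of the synthetics. Their shares thus come from sets unlike the 788 and the 295. The 215 were below in Joyau, Ae. tauschii and the synthetics, and the Courtot arrays alone sufficed to pass them through the filter.

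The levels in Courtot, Joyau and Ae. tauschii were fixed by the choice of these probe sets. Those of the synthetics did not enter the choice, but the levels of their parents, Joyau and Ae. tauschii, did. At the 295 both parents were chosen to be below 5, so low synthetic levels there are no independent result. The median of the synthetic group means among the 788 was 6.34 in S0_36, 6.30 in S0_54 and 6.02 in S1_54, beside a Courtot median of 6.32. Among the 295 it was 3.12 to 3.22, beside a Courtot median of 6.27.

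Among probe sets with a symbol, those measured in Courtot with Joyau and Ae. tauschii below were led by 1 probe set each of LOC543150, LOC780572, LOC543418 and LOC543292. LOC780572 (Ta.28368.2.S1_at) was at 7.08 and 7.59 in Courtot, against 2.29 and 2.34 in Joyau, a log2 difference of 5.02 ± 0.40 (SE, adjusted p = 3.97e-06, limma). LOC543418 (Ta.10508.2.S1_a_at) was at 7.35 and 6.98 in Courtot, against 3.07 and 3.25 in Joyau, a difference of 4.00 ± 0.21 (adjusted p = 1.68e-07). LOC543292 (Ta.24501.1.S1_at) was at 7.30 and 7.32 in Courtot, against 3.68 and 3.69 in Joyau, a difference of 3.62 ± 0.28 (adjusted p = 3.49e-06). On these 3 probe sets every synthetic and Ae. tauschii array was below 5, the highest being 4.95 for LOC543292 in S0_36. A second probe set of LOC543418, Ta.24991.1.S1_x_at, was at 10.83 and 10.63 in Courtot, against 10.90 and 10.80 in Joyau (log2 difference -0.12 ± 0.19, adjusted p = 0.693). It was at 10.97 in Ae36, 10.53 in Ae54 and 10.15 to 10.66 in the synthetics, so the pattern of LOC543418 held for 1 of its 2 tested probe sets.

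LOC543150 (Ta.21350.2.S1_at) was at 10.41 and 9.30 in Courtot, against 3.43 and 3.33 in Joyau, a log2 difference of 6.47 ± 0.88 (SE, adjusted p = 0.000227, limma). Unlike the other 3, it was partly measured in the synthetics, with 5.10 and 5.84 in S0_36, 5.00 and 6.41 in S0_54 and 3.91 and 7.29 in S1_54. Courtot was higher than the synthetics by 4.26 ± 0.72 (adjusted p = 0.00211). A second probe set of the gene, Ta.30711.1.S1_x_at, was at 7.14 and 6.24 in Courtot, against 5.23 and 5.40 in Joyau, and was not called (log2 difference 1.37 ± 0.50, adjusted p = 0.0574). This second probe set was called in some alternatives, among them separate mix arrays. It was measured outside Courtot too, at 7.76 in Ae36 and 8.97 in S0_36, whereas Ae54 was below 5, at 4.61.

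Of the 743 called probe sets measured in Joyau and below in Courtot, 610 (82.1%) were below on all 4 Ae. tauschii arrays and 30 (4.04%) were measured on all 4. Over all probe sets measured in Joyau these shares were 19.3% and 66.4%. The synthetics, which carry the Joyau subgenomes, were measured on all 6 arrays at 87 (14.3%) of the 610 and below on all 6 at 317 (52.0%). Over the 2428 probe sets measured in Joyau and below in Ae. tauschii, the synthetics were measured at 1203 (49.5%) and below at 481 (19.8%).

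These numbers moved with the level. At a level of 4 in place of 5, 317 probe sets were measured in Joyau only, 216 of them with Ae. tauschii below and 57 with the synthetics below as well. Many of the 610 were dim in Joyau itself, with a median of 5.74. The synthetic medians, which the choice of probe sets did not fix, were 4.44, 4.58 and 4.36 in S0_36, S0_54 and S1_54. At the 76 of the 610 with a Joyau mean of 7 or more, the synthetics were measured on all arrays at 42 (55.3%) and below on all at 15 (19.7%). Within the 610, the share with synthetics measured was thus higher where Joyau was bright. The share over all probe sets of that Joyau brightness was not counted, so whether 55.3% is low for it cannot be said. On the RNA mixes, which hold an equal amount of Joyau RNA, 59 (18.6%) of the 317 were measured on all arrays and 160 (50.5%) were below on all.

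Among genes with a symbol, measured in Joyau and in Ae. tauschii but below in Courtot, were LOC543352, described above, and LOC542872. LOC542872 (Ta.4256.1.S1_at) was at 4.17 and 4.18 in Courtot, against 5.34 and 5.26 in Joyau, a log2 difference of -1.13 ± 0.25 (SE, adjusted p = 0.00495, limma). It lay just across the level of 5, and its call ended with 1 shared variance and Bonferroni adjustment.

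**Figure D3:**
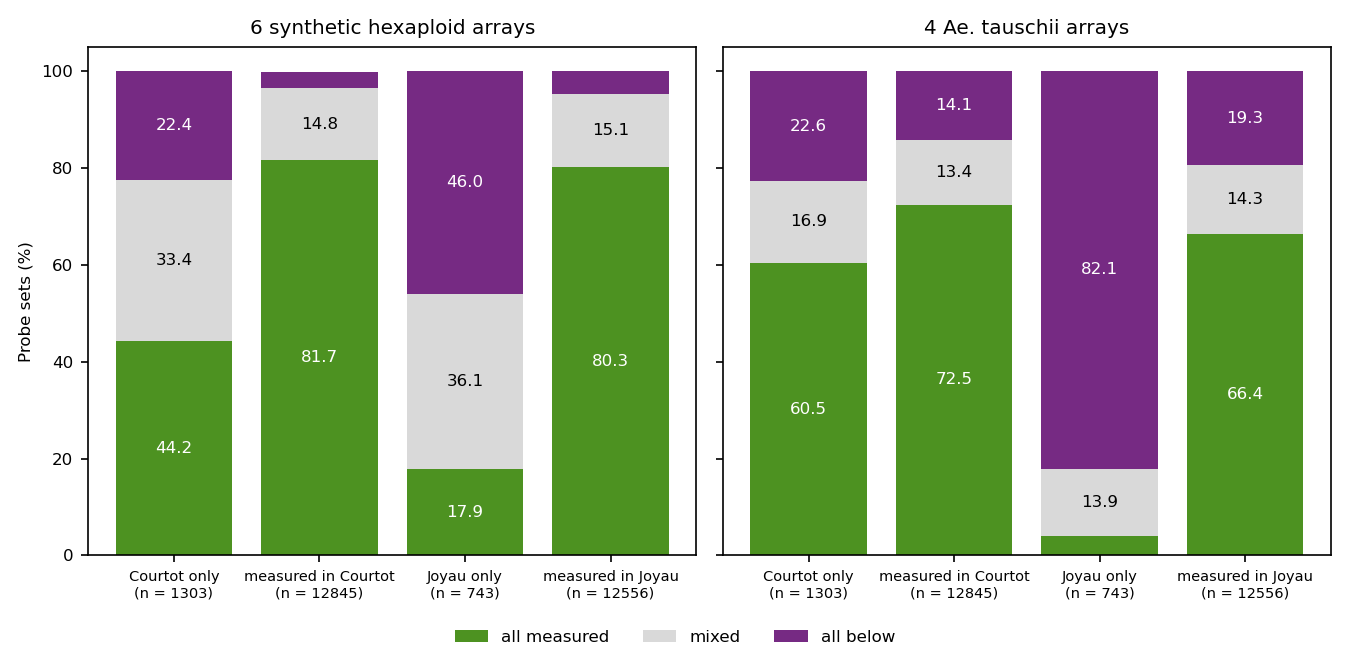
Share of probe sets (%) that were at 5 or more on all arrays, below on all arrays or mixed. The 6 synthetic arrays are on the left and the 4 Ae. tauschii arrays on the right. Bars show called probe sets measured in Courtot only, all measured in Courtot, called probe sets measured in Joyau only and all measured in Joyau. Ae. tauschii was below at 22.6% of the Courtot-only and at 82.1% of the Joyau-only probe sets.

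At the probe sets measured in both species, 1073 were called higher in Courtot, 1643 lower and 8148 not called. Ae. tauschii was measured on all arrays at 87.8% of those called higher, 56.1% of those called lower and 77.1% of those not called. It was below on all arrays at 8.20% of those called higher, 30.8% of those called lower and 9.71% of those not called. These shares were not tested against each other.

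Of 146 genes with several tested probe sets, 20 had all of them called higher in Courtot, 10 all called lower and 70 none called. Over all tested probe sets 17.6% were called higher and 15.4% lower, which are shares of probe sets and not of genes. In 42 genes some were called, all in 1 direction. In 4 genes, LOC606341, LOC543111, LOC543319 and LOC606340, probe sets were called in opposite directions. Probe sets of 1 gene can share probes or read different homoeologues, so they are no replicates of each other.

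LOC543319 had 5 tested probe sets at high levels in Courtot and Joyau. Ta.2502.2.A1_x_at was at 10.35 and 10.33 in Courtot, against 8.68 and 8.69 in Joyau, higher by 1.66 ± 0.21 (SE, adjusted p = 0.000147, limma), with Ae36 at 11.19 and Ae54 at 11.15. Ta.2502.3.A1_at was at 8.23 and 8.63 in Courtot, against 9.72 and 9.80 in Joyau, a log2 difference of -1.33 ± 0.24 (SE, adjusted p = 0.0016, limma), with Ae36 at 2.67 and Ae54 at 2.58. The probe set that was lower in Courtot was thus at the floor in Ae. tauschii, and the one that was higher in Courtot was at its highest there. Of the other 3, Ta.2502.3.A1_x_at was called lower at -0.84, a call that ended without either Joyau replicate and without Courtot replicate 1, and 2 were not called.

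LOC606340 had 7 tested probe sets, of which 1 was called in each direction with a small difference. Ta.27765.6.S1_x_at was higher in Courtot, at 10.61 and 10.67 against 10.06 and 9.96 in Joyau (0.63 ± 0.19, adjusted p = 0.0272), with Ae36 and Ae54 at 11.48 and 11.29. Ta.27765.3.S1_at was lower in Courtot, at 10.34 and 10.50 against 11.10 and 10.97 in Joyau (-0.61 ± 0.20, adjusted p = 0.0342), with Ae36 and Ae54 at 2.73 and 2.82. Both calls ended when any of the 4 Courtot and Joyau arrays was left out.

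LOC606341 was called higher on 2 probe sets, by 6.40 and 3.37, and lower on Ta.23202.2.S1_s_at, at 9.35 and 9.28 in Courtot against 9.90 and 10.01 in Joyau (-0.64 ± 0.21, adjusted p = 0.0339). The fall likewise ended when any of the 4 arrays was left out.

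The suffix of a probe set tells how specific its probes are by design. Among the 3255 tested probe sets ending in x_at, whose probes may bind other transcripts, 20.1% were called higher and 12.8% lower in Courtot. Among the 11074 with the plain suffix, 18.1% were called higher and 16.9% lower. The 2440 ending in a_at, which read several transcripts of 1 gene, had the lowest share called in either direction, at 26.5%, with 13.3% higher and 13.2% lower, and 29.2% of the 1420 ending in s_at were called in either direction. Over all tested probe sets 17.6% were called higher and 15.4% lower, 33.0% in either direction, a share that x_at equalled at 33.0%. The differences between kinds were not tested.

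No gene with a symbol other than a locus identifier was called. Of the 9 tested probe sets of 8 such genes, 0 were called in limma's test or in any alternative, and 1 had an unadjusted p under 0.05. Over all tested probe sets 33.0% were called, and 9 probe sets are too few to set against that share. The 17 lists of plant pathways were looked up by symbol, and the 4 lists with any tested probe set had 6 in all, 0 of them called. These 6 are among the same 9 probe sets, so this is not a separate result. With so few members the lists say nothing of their pathways.

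CAT1, a catalase that breaks down hydrogen peroxide in peroxisomes, was at 12.36 and 12.53 in Courtot, against 12.87 and 12.92 in Joyau. The log2 difference was -0.45, with a 95% interval from -0.99 to 0.08 (adjusted p = 0.181, limma). Against the synthetics it was higher in Courtot by 2.06 ± 0.20 (SE, adjusted p = 3.35e-05), whose means were 10.03 to 10.88. Courtot and Joyau were thus the 2 brightest plant groups for CAT1, with Ae36 at 11.09 and Ae54 at 11.92.

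SAHH, an enzyme that clears S-adenosylhomocysteine after methylation reactions, was at 11.86 and 11.51 in Courtot, against 11.94 and 11.80 in Joyau on Ta.1258.1.S1_a_at (log2 difference -0.19, 95% interval -0.93 to 0.56, adjusted p = 0.718). Its second probe set gave -0.25 (adjusted p = 0.664). Courtot was higher than the synthetics on both, by 1.10 and 1.17 (adjusted p = 0.0152 and 0.0203, limma), and both calls ended without Courtot replicate 1.

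GAPN, a cytosolic dehydrogenase that oxidises glyceraldehyde-3-phosphate without phosphorylation, was at 9.66 and 9.45 in Courtot, against 10.15 and 10.22 in Joyau. The arrays did not overlap, and the log2 difference of -0.63 had a 95% interval from -1.31 to 0.05 (adjusted p = 0.143, limma). It was higher than the synthetics by 1.09 ± 0.25 (adjusted p = 0.0103), a call that ended without Courtot replicate 1.

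TUBA, an alpha-tubulin of the microtubules, was at 11.59 and 11.10 in Courtot, against 10.85 and 10.76 in Joyau. Its log2 difference of 0.54 had a 95% interval from 0.01 to 1.07, and it was not called after adjustment (adjusted p = 0.111, limma). Against the synthetics the difference was 0.71 ± 0.20 (adjusted p = 0.0234), and that call ended without Courtot replicate 1.

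The narrowest interval among these 9 probe sets was that of a photosynthetic gene. petC, the Rieske iron-sulfur protein of the cytochrome b6f complex, was at 13.79 and 13.75 in Courtot, against 13.72 and 13.79 in Joyau (log2 difference 0.02, 95% interval -0.44 to 0.48, adjusted p = 0.959). FBP, a fructose-1,6-bisphosphatase of sugar metabolism, was at 10.30 and 9.47 in Courtot, against 9.99 and 10.07 in Joyau (-0.14, 95% interval -0.83 to 0.55, adjusted p = 0.775). The Courtot arrays of FBP lay on both sides of Joyau, with an SD of 0.59.

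TBP1, a TATA-binding protein of the basal transcription machinery, was at 5.91 and 6.06 in Courtot, against 6.37 and 6.09 in Joyau (log2 difference -0.25, 95% interval -1.05 to 0.56, adjusted p = 0.653). XTH, an enzyme that cuts and rejoins xyloglucan in the cell wall, was at 7.60 and 5.47 in Courtot, against 7.27 and 7.42 in Joyau. The XTH arrays of Courtot lay on both sides of Joyau, and the difference of -0.81 had an interval from -2.45 to 0.83 (adjusted p = 0.44), too wide to bound it usefully.

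The brightest probe sets that were not called had narrow intervals. LOC100049018, on Ta.24976.1.S1_x_at, was at 15.36 and 15.32 in Courtot, against 15.30 and 15.48 in Joyau, with a 95% interval of the log2 difference from -0.42 to 0.32. The brightest probe sets of LOC732707, LOC100049048 and LOC543448 had differences of -0.20, -0.04 and -0.08, with intervals between -0.57 and 0.33. These bounds hold for those probe sets and not for the genes. The 7 tested probe sets of LOC100049018 ranged from -2.22 to 0.47, and a second one of LOC543448 was at -1.04, none of them called.

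**Figure D4:**
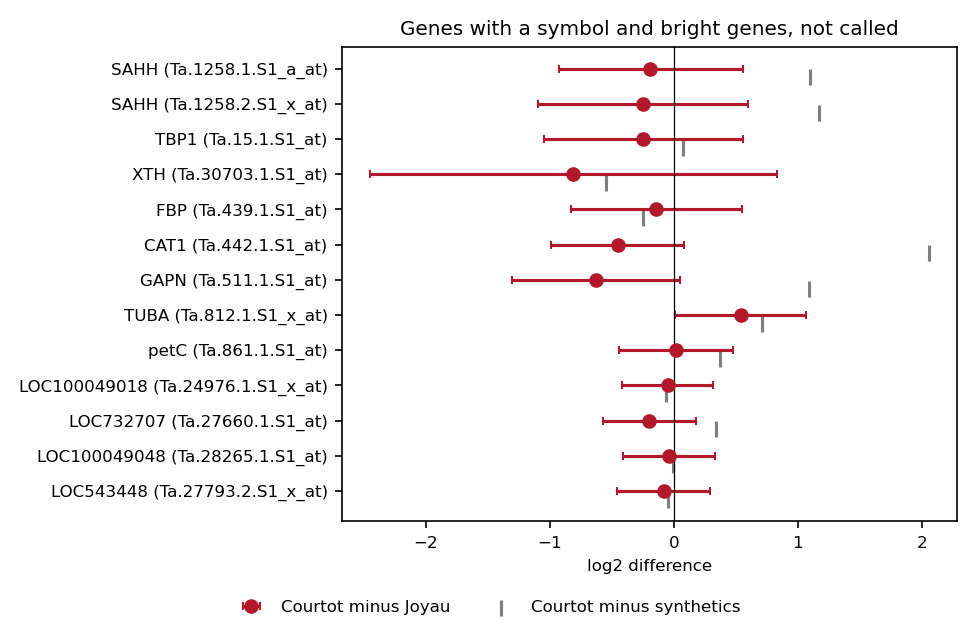
Log2 difference of Courtot minus Joyau with its 95% interval (points and bars) for the 9 probe sets with a symbol that is not a locus identifier and the brightest probe sets of 4 other genes that were not called; grey ticks give Courtot minus the synthetics. All 13 intervals but that of TUBA include 0, and the tick of CAT1 lies at 2.06.

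Courtot was also set against the synthetic hexaploids. Against the mean of the 3 synthetic groups 4806 probe sets (26.4%) were called, 2633 (14.5%) higher and 2173 (11.9%) lower in Courtot. The comparisons with the synthetics and with Joyau share the 2 Courtot arrays, and the order of their counts depended on the fit. With only the groups compared in the fit, 5365 probe sets were called against the synthetics and 4813 against Joyau. Of the 12 largest rises over Joyau, 5 were called higher and 2 lower in Courtot than in the synthetics, and 5 were not called. The call of LOC543254 against the synthetics, at 0.69, was among the 5 called higher and ended without Courtot replicate 2, at 0.33. It also ended in further alternatives, among them no filter, only the groups compared and either S0_36 replicate left out. Without Courtot replicate 1 the count of calls against the synthetics fell to 1996, with 1284 higher and 712 lower, and without Courtot replicate 2 the number called higher fell to 1588.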

How the data were processed

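RNA of whole plants was hybridised to 18 Affymetrix wheat arrays, 1 RNA sample per array. The authors deposited a log2 expression value for each probe set on each array, computed with GCRMA according to the submitters' processing notes. This method subtracts a background predicted from the probe sequences, brings all arrays to the same distribution and combines the probes of a set into a single value. The GCRMA version was not given in the sources used here. The number of arrays limits the precision. No column of the deposited table was left without a sample (0 columns).

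Groups came from the sample descriptions. The 2 arrays of each RNA mix differed by an SD of 0.131 and 0.117, against 0.460 to 0.671 in the plant groups, so each pair was averaged and counted as 1 sample. The fit thus had 16 samples in 9 groups. The labels call the plant arrays biological replicates, without saying that they were grown or extracted apart, so the p-values measure the spread between these samples.

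Of 61290 probe sets, 111 control probe sets were left out, and 18189 entered the tests by reaching 5 on 2 arrays or more. One linear model with a mean per group was fitted with limma 3.58.1 in R 4.3.3, with eBayes (7 residual and 3.44 prior degrees of freedom), two-sided. All groups share the estimate of the spread. P-values were adjusted by Benjamini-Hochberg over the tested probe sets of a comparison, with calls at an adjusted p under 0.05. Courtot against the synthetics was the Courtot mean minus the mean of the 3 synthetic groups. On simulated data with 200 changed probe sets among 18189, the Courtot and Joyau comparison recovered 20% of those given a log2 change of 1, 82% of those given 2, and called 5 unchanged ones. In the real data a far larger share, 33.0%, was called, and the adjustment depends on that share, so these rates need not hold there.

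The comparison, the gene lists and the tests were chosen with earlier results of these data known. Genes named were the 12 largest rises and 12 largest falls called with 1 symbol, an absolute log2 difference of 1 or more and no overlap between the arrays, up to 4 such genes in each class by presence, every tested probe set with a symbol other than a locus identifier, 2 rises and 2 falls without a symbol, genes called in opposite directions, and up to 5 bright genes not called. Other probe sets of genes named in this way were given where they bore on the result. The replicate numbers of Courtot and Joyau were not used to pair the arrays. Deviations from the group means correlated at 0.054 between arrays of the same number, and at -0.056 to 0.228 for the other pairs of plant groups sharing those numbers. A low correlation cannot show that no arrays were processed together. Alternatives were quantile normalisation, median centring, no filter and a stricter one, separate mix arrays, no mixes, array weights, only the groups compared, 1 shared variance with Bonferroni adjustment, a replicate block, each replicate left out and other presence levels.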

Additional observations from a re-analysis of the deposited data

Results flagged for a closer look

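The sucrose synthase 3′ control probe set of the array, which reads a plant transcript and lies outside the tested probe sets, was at 9.35 and 9.56 in Courtot, against 7.87 and 7.76 in Joyau, a mean difference of 1.64 on the log2 scale. It stood out as a difference between the groups in probe sets that no comparison used. On the 5′ probe set of the same transcript the Courtot and Joyau arrays overlapped, so the difference did not hold there. Sucrose synthase cleaves sucrose for use in sink tissues. Its 3′ minus 5′ difference was 5.34 and 4.08 in Courtot, against 3.57 and 4.06 in Joyau, and the part of RNA quality in the result was not tested.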

How the results depend on the processing

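No called difference of a named probe set changed direction under the alternatives run. Of the 70 named probe sets, 45 were called between Courtot and Joyau, and 38 of these were called in all 18 alternatives. Of 41 set against the synthetics, 21 were called, 10 of them in every alternative, and 2 others were gained in an alternative. Over all tested probe sets 26.4% were called against the synthetics. The count of 6010 calls between Courtot and Joyau was 6420 with quantile normalisation, 6347 with median centring, 7333 with separate mix arrays, 6458 without a filter, 4421 with the stricter filter and 4813 with only those groups. It was 2347 (1539 higher and 808 lower in Courtot) with 1 shared variance and Bonferroni adjustment, which is stricter by construction. The same setting gave 1523 (657 and 866) against the synthetics. It gave 1609 calls for the plain suffix, 413 for x_at, 173 for s_at and 152 for a_at.

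The replicate numbers are shared only as numbers. With a replicate block on the 8 arrays of groups sharing them, 4627 probe sets were called, against 4818 on those arrays without it. A replicate block on the 4 Courtot and Joyau arrays alone, added after seeing the data, gave 3966 calls, with 1570 lower in Courtot and 352 among a_at.

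With 1 array left out at a time, calls between Courtot and Joyau numbered 4232 to 6003, with 2286 to 3174 higher and 1631 to 2829 lower, and a_at calls 406 to 636. The counts of 1631 and 406 came without Courtot replicate 1. Against the synthetics the range was 1996 to 4703, with 1284 to 2650 higher and 712 to 2122 lower. A group left with 1 array was assumed to vary like the others. With a presence level of 4 in place of 5, probe sets measured in Joyau only numbered 317, of which 216 were below in Ae. tauschii and 57 below in the synthetics as well. Dim probe sets are limited by the floor of the background model, and groups of 2 arrays limit small differences.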

Other observations

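At some probe sets the Ae. tauschii accessions fell on different sides of the level of 5. Among the 1303 probe sets measured in Courtot only, 73 (5.60%) were measured on both Ae36 arrays and below on both Ae54 arrays, and 48 (3.68%) showed the converse. Over the 12845 probe sets measured in Courtot the numbers were 200 (1.56%) and 231 (1.80%). No test was made of these shares.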
